A study of Mus musculus with 4 samples.

Results

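Prostanoids are short-lived lipid signals made from arachidonic acid, and the 8 genes described here make, sense or break them down. The genes are Pla2g4a, Ptgs1, Ptgs2, Ptges, Ptgis, Ptger2, Ptger4 and Ptgr1, and they were taken as a named list. Every probe set that the platform annotation assigns to 1 of them alone was read on every array. That gave 11 probe sets for 7 of the 8 genes, out of 45101 probe sets and 18194 genes with a probe set of their own. No probe set carries the name Ptgs1 alone in that annotation, and Ptgs1 is not analysed here.

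The arrays were made from mouse embryonic fibroblasts, the connective-tissue cells that grow out of dissociated embryos. They came from FAK +/+ (wild type) or FAK -/- (knockout) mice, and FAK is focal adhesion kinase, a tyrosine kinase that relays signals from integrins at sites of matrix attachment. All cells were at passage 5 in medium with 10% serum, were deprived of serum for 24 h at 50% confluence, and then spent 24 h with endothelin-1 (ET-1) or without it. ET-1 is a peptide that acts through G protein-coupled receptors. Each of the 4 groups (each genotype without and with ET-1) was measured on 1 Affymetrix mouse genome array. The labels name no other allele, and they do not say how many embryos or lines stand behind each genotype.

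Cytosolic phospholipase A2, the product of Pla2g4a, frees arachidonic acid from membrane lipids. The cyclooxygenases, encoded by Ptgs1 and Ptgs2, turn it into the shared precursor of all prostanoids. Ptgs1 is made steadily in many tissues, whereas Ptgs2 is an inducible gene that fibroblasts switch on after serum, growth factors or cytokines. Terminal synthases then decide the product: Ptges encodes the microsomal prostaglandin E synthase and Ptgis encodes prostacyclin synthase. Ptger2 and Ptger4 encode prostaglandin E receptors that couple to the stimulatory G protein and raise cyclic AMP, and Ptgr1 encodes a reductase that inactivates oxidised prostaglandins and leukotriene B.

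The values are log2 expression summarised by RMA, and a gene is represented by its brightest probe set unless another is named. Genes entered the test when their highest value over the arrays was above 8.90, the median of all values in the table. By that filter 12290 genes were tested, 6 of the 7 measured prostanoid genes among them. With 1 array per group, a difference between 2 arrays has no replicate check. The test was limma on an additive model of genotype and treatment over all 4 arrays, with Benjamini-Hochberg adjustment over 12290 genes. That model leaves 1 residual degree of freedom, the departure of the arrays from additivity, so its standard errors (SE) do not measure a spread between cultures.

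Facts of the whole series bear on the values that follow. The ET-1-treated wild-type array had a gap of 3.79 (log2) between the 3' and 5' probe sets of Gapdh, against 0.85 to 0.90 in the other 3 arrays. By Actb it stood apart less, with a gap of 1.81 beside 0.66 in untreated wild type, 1.30 in the untreated knockout and 1.27 in the ET-1-treated knockout. The part of either gap in the results was not tested. No probe set is assigned to the FAK gene in the annotation, so the genotype labels were not checked against it. Of 10 fibroblast markers, 9 were above the filter in each array except the ET-1-treated knockout, which had 7. By limma 7 of the 9 tested fell in the knockout and 1 rose, against 7.05% lower and 6.6% higher of all genes tested. Thy1, a surface protein, read 13.01 and 13.46 in untreated and ET-1-treated wild type and 8.95 and 6.85 in the untreated and ET-1-treated knockout. The mesothelial list differed in the opposite direction, as described beside Ptgis.

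In the knockout Ptgs2 and Ptger4 fell and Ptgr1 rose by limma, 3 of the 6 genes tested. Of all genes tested 13.6% were called, 6.6% higher and 7.05% lower. For 5 of the 6 genes both knockout arrays lay on the same side of both wild-type arrays, 3 below and 2 above, as did 59.3% of all genes tested (30.0% above, 29.3% below). At 2-fold or more, 4 of the 6 differed in untreated cells (2 higher, 2 lower) and 4 after ET-1 (1 higher, 3 lower). Of all genes 9.37% reached 2-fold in untreated cells (4.78% higher, 4.59% lower), and with ET-1 the share was 12.1% (5.61% higher, 6.53% lower). The 6 genes had a median difference of -0.42 without ET-1 and -0.63 with it; over all genes the medians were 0.02 and -0.03.

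**Figure D1:**
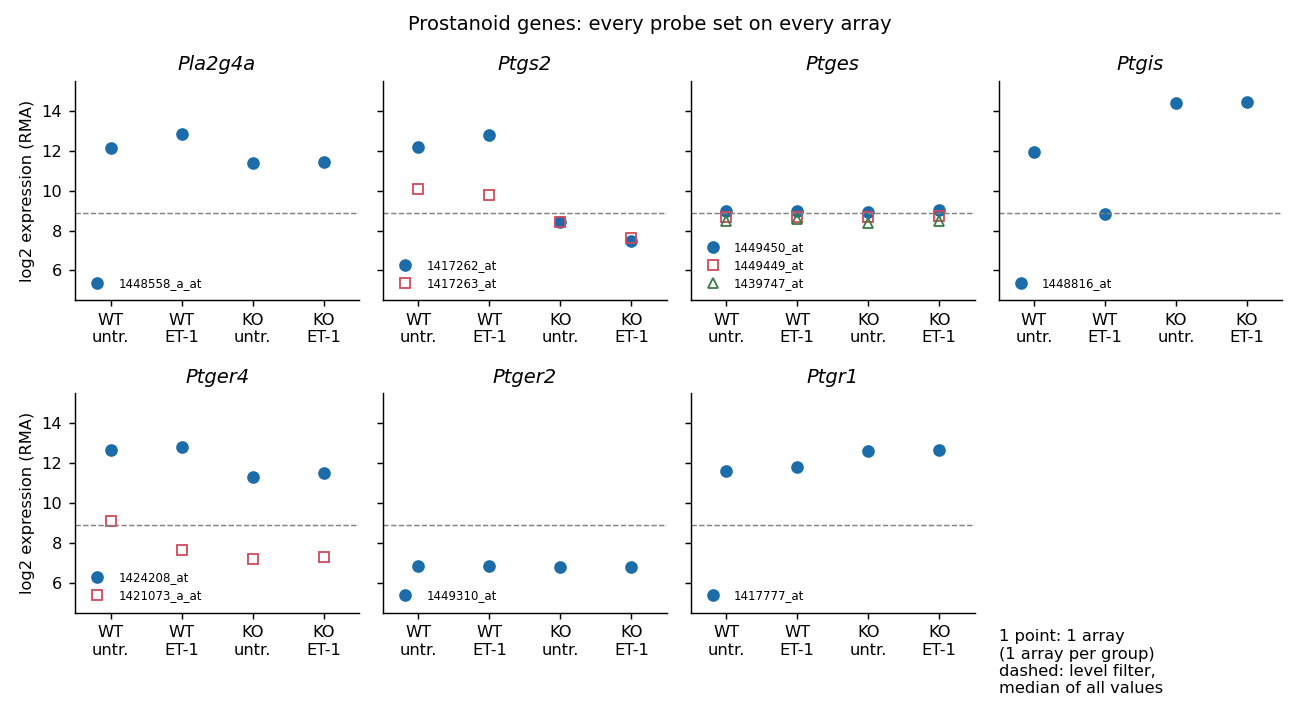
Log2 expression (vertical axis) of each prostanoid probe set on the 4 arrays (horizontal axis: WT, wild type, and KO, knockout, untreated or with ET-1); each point is 1 array, and the dashed line is the level filter at 8.90. Ptgs2 is high in wild type and below the line in the knockout, Ptgis is lowest in ET-1-treated wild type at 8.82 and near 14.4 in the knockout, and Ptges and Ptger2 stay level across the arrays.

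Pla2g4a, at the head of the pathway, was read by 1 probe set. It was 12.16 in untreated wild type, 12.82 in ET-1-treated wild type, 11.39 in the untreated knockout and 11.45 in the ET-1-treated knockout. Both knockout arrays were below both wild-type arrays, by 1.70-fold in untreated cells and 2.59-fold after ET-1. The limma difference of -1.07 ± 0.22 (SE) did not pass (adjusted p = 0.0573). Over 12 other settings of this test its adjusted p ran from 0.00198 to 0.274, and 7 of them called it. Among these, leaving out untreated wild type gave -1.40 and leaving out ET-1-treated wild type gave -0.74, both called, in a model of genotype alone. Within wild type the gene was 1.58-fold higher after ET-1, and within the knockout 1.04-fold higher.

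Ptgs2 had the largest difference among the genes that fell. Its brightest probe set read 12.21 in untreated wild type and 12.79 in ET-1-treated wild type. In the knockout it read 8.43 untreated and 7.47 with ET-1, both below the level filter, so the sizes and ranks of the differences are uncertain. Ptgs2 entered the test through wild type alone, so the separation of the genotypes is no independent support. Without the filter, over 18194 genes, limma also called it (adjusted p = 0.0178). The knockout was 13.8-fold lower in untreated cells and 40.1-fold lower after ET-1, the 25th and the 20th lowest differences among 12290 genes. The limma difference was -4.55 ± 0.40 (SE, adjusted p = 0.00975). All 12 other settings called it, at differences of -5.04 to -3.23 and adjusted p of 0.000137 to 0.0242.

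A second Ptgs2 probe set gave the same direction for genotype at a smaller size. It read 10.07 and 9.79 in untreated and ET-1-treated wild type, and 8.41 and 7.63 in the untreated and ET-1-treated knockout. Its genotype differences were -1.66 without ET-1 and -2.16 with it. Fitted with each of 20939 probe sets as its own row, where 8.45% were called, its limma difference was -1.91 ± 0.17 (SE, adjusted p = 0.0241). The probe sets disagreed on ET-1 in wild type, at 0.58 for the brightest and -0.29 for the other. In the knockout both were lower with ET-1, by -0.96 and -0.79.

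The start of Ptgs2 is shown because transcription factors of the list described next are known to act there. Of the 8 genes, 7 have a window in the RefSeq promoter table (GRCm38.p6), which holds 32851 windows of 300 bases, 250 before and 50 after an annotated start; Ptgis does not. The 250 bases before the Ptgs2 start lie on the plus strand at chr1:150099781-150100030, and capitals mark a GC box (GGGCGG) and a C/EBP site (TTGCGCAA).
Ptgs2 before the start: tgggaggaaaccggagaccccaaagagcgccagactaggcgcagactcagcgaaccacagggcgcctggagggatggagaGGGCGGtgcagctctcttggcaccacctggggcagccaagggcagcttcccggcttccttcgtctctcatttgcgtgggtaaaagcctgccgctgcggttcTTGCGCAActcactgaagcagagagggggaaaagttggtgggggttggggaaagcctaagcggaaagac
For each gene the most upstream annotated start was used, and whether transcription begins there in these cells was not tested. Positions would differ from another start. Just after the start used, the core of the cyclic AMP response element (TGACG, here on the minus strand) overlaps an E-box (CACGTG). The joined stretch runs from base 14 to base 22. Capitals mark the joined letters, at chr1:150100036-150100060 on the plus strand.
Ptgs2 site: caccactaCGTCACGTGgagtccgc
Searched on both strands of all windows, GGGCGG was found in 35.7%, TTGCGCAA in 0.183%, TGACG in 20.8%, CACGTG in 7.15% and the joined CGTCACGTG in 0.451%. The search also covered TATAAA (13.6% of windows), TGACGTCA (1.79%), TGANTCA (7.81%), TGACNNNGC (12.4%) and the NF-kB site by name (4.51%), and none of these is in the Ptgs2 window. A match is a run of letters and was not tested as a binding site here.

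Factors known to act on Ptgs2 transcription or on the stability of its RNA were measured as a list of 18, of which 17 were tested. By limma 2 rose and 1 fell in the knockout, 3 of 17 against 13.6% of all genes, a share near that background. Cebpb, a C/EBP transcription factor, rose by 1.43 ± 0.23 (SE, adjusted p = 0.0321). It read 11.47, 11.04, 12.59 and 12.79 in wild type without and with ET-1 and then in the knockout without and with it. Celf2, an RNA-binding protein that can block Ptgs2 translation, rose by 1.21 (adjusted p = 0.0450), and Nfatc1, a calcium-responsive transcription factor, fell by 2.23 (adjusted p = 0.00586). The remaining 14 did not pass. Among them were the NF-kB subunit Rela at -0.12, Creb1, which binds the cyclic AMP response element, at 0.06, Jun at -0.64, Usf1, which binds E-boxes, at -0.01 and Elavl1, which stabilises many AU-rich RNAs, at 0.09. The list's median difference was 0.29 without ET-1 and 0.11 with it.

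Ptgs2 and Pla2g4a are next to each other among the protein-coding genes of mouse chromosome 1. The neighbours of all 8 members were looked up, after the values of both genes had been seen. Brinp3, which lies beyond Pla2g4a, read 9.79 and 10.35 in untreated and ET-1-treated wild type, and 6.72 and 6.68 in the untreated and ET-1-treated knockout (adjusted p = 0.00586 by limma). Both knockout values are below the filter. On the other side of Ptgs2, Pdc was below the filter on every array, at 7.78 to 7.95. Odr4, the next gene, differed by 0.02 in untreated cells and -0.53 after ET-1 (adjusted p = 0.477 by limma). Elsewhere a neighbour could differ alone: Prrx2, next to the level gene Ptges, differed by -2.38 in untreated cells and -2.59 after ET-1 (adjusted p = 0.00556 by limma). Both its knockout values were below the filter. Ecpas, the second gene to 1 side of Ptgr1, differed by 0.76 in untreated cells and 0.87 after ET-1. It was called by limma (adjusted p = 0.0476) and rose as Ptgr1 did. Zkscan16, which lies between them, was not called (adjusted p = 0.157 by limma). The tested neighbours of Ptgis and Ptger4 were not called. Shared control of neighbours was not tested.

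The terminal synthases Ptges and Ptgis behaved differently from each other. The 3 Ptges probe sets read 8.91 to 9.03, 8.67 to 8.72 and 8.38 to 8.56 over the 4 arrays, and the brightest alone was above the filter. That one differed by -0.01 ± 0.10 (SE) between genotypes by limma (adjusted p = 0.964). None of the 3 differed by more than 0.12 in any pair of groups that share a genotype or a treatment. A gene this near the filter may be barely detected, so these values do not show a level of Ptges that is equal in the groups.

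Ptgis ranged widely over the arrays. Its probe set read 11.95 in untreated wild type, 8.82 in ET-1-treated wild type, 14.42 in the untreated knockout and 14.45 in the ET-1-treated knockout. The knockout arrays were alike and high, and ET-1-treated wild type was the low one, just below the filter. The knockout was 5.55-fold higher in untreated cells and 49.3-fold higher after ET-1, the 89th and the 13th highest differences. In wild type Ptgis was 8.72-fold lower after ET-1, whereas in the knockout it differed by 0.03 (log2).

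The limma genotype difference of Ptgis was 4.05 ± 0.80 (SE) and did not pass (adjusted p = 0.0522). Its adjusted p ran from 3.65e-05 to 0.213 over 12 other settings, 7 of which called it higher. Its size depends on which wild-type array is kept. Without ET-1-treated wild type the difference was 2.49 ± 0.09 (SE, adjusted p = 0.000322), and without untreated wild type it was 5.61, both in a model of genotype alone. In these fits the residual is the gap between the knockout arrays, which was small for Ptgis.

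**Figure D2:**
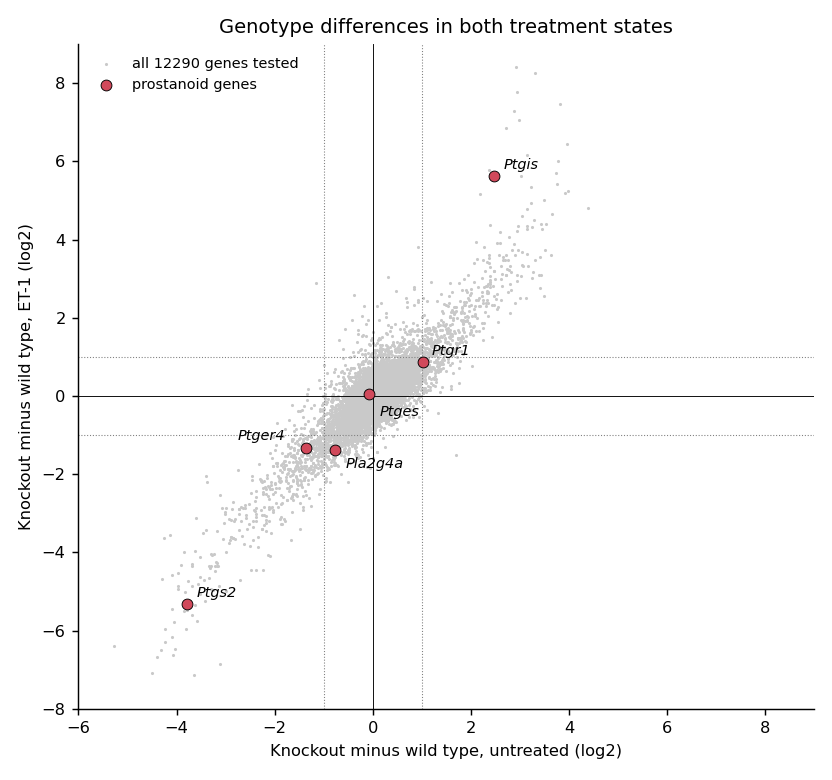
Knockout minus wild-type log2 difference in untreated cells (horizontal) and after ET-1 (vertical) for the 12290 genes tested (grey) and the 6 tested prostanoid genes (red); dotted lines mark 2-fold. Ptgs2 lies far down on the left (-3.78 and -5.33), Ptgis far up on the right (2.47 and 5.62), and Ptges sits at the centre.

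The mesothelial marker list moved with Ptgis. Mesothelial cells line the body cavities and are known to release prostacyclin. Without ET-1, the knockout exceeded wild type by 2-fold or more in all 7 of its genes, against 4.78% of all genes tested. With ET-1 it did so in 6, against 5.61%. By limma 5 rose, against 6.6% of all genes, and none fell. In wild type 5 of the 7 were at least 2-fold lower after ET-1, against 1.17% of all genes, and in the knockout none was. The summed linear level of the list was 17497 in untreated wild type, 6748 in ET-1-treated wild type, 100430 in the untreated knockout and 89961 in the ET-1-treated knockout. All 7 were above the filter in 3 arrays and 2 were in ET-1-treated wild type. Fewer cells of a type and less RNA per cell cannot be told apart in these bulk samples, and the part of such cells in the Ptgis values was not tested.

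Among single markers, Upk3b, a uroplakin of mesothelium, read 12.39 and 8.88 in untreated and ET-1-treated wild type and 14.76 and 14.66 in the untreated and ET-1-treated knockout. The transcription factor Wt1 read 10.20, 8.47, 13.43 and 13.41 in the same order. Mesothelin (Msln) did not follow the ET-1 pattern, at 12.05 in both wild-type arrays and 13.08 and 12.96 in the knockout. Epithelial markers were mixed, with 3 rising and 1 falling by limma among 8 tested, against 6.6% and 7.05% of all genes. The keratins Krt18, Krt8 and the desmosomal gene Dsp rose by 4.32, 1.11 and 2.13, and the keratin Krt19 fell by 2.98. Dsp was below the filter in both wild-type arrays (7.69 and 7.30) and entered the test through the knockout alone. Krt19 was below it in both knockout arrays (8.86 and 7.99) and entered through wild type alone. Krt18 was below it in ET-1-treated wild type (7.48), so the sizes for Dsp, Krt19 and Krt18 are uncertain. The adhesion gene Epcam read 11.69 to 12.08 and was not called, and the adhesion gene Cdh1 stayed below the filter, at 5.74 to 5.95. The summed level of the 9 epithelial genes was 14334, 9951, 35956 and 28560 in wild type without and with ET-1 and then in the knockout without and with it.

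By profile over the 4 arrays, the genes nearest to Ptgis were Upk3b, the keratins Krt14 and Krt18, the peptide hormone gene Apela and the retinal dehydrogenase Aldh1a1. Likeness was the Euclidean distance between log2 values, each gene centred on its own mean, and these 5 lay at 0.29 to 0.86. In ET-1-treated wild type all 5 were below the filter, at 7.48 to 8.88, as was Ptgis at 8.82. The distances to Ptgis therefore rest partly on low values that are uncertain. The genes nearest to Ptgs2 were Zfp979, the guidance cue Slit2, the interferon-inducible Ifi204, the lymphatic growth factor Vegfc and the dystrophin-complex gene Sspn, at 0.11 to 0.27. Slit2 read 13.12, 13.85, 9.49 and 8.50 in wild type without and with ET-1 and then in the knockout without and with it. Both knockout values of Zfp979, Ifi204, Vegfc and Sspn were below the filter, as were those of Ptgs2. Their distances to Ptgs2 therefore rest partly on values too low to be relied on. A profile of 4 arrays has few degrees of freedom, so many genes can lie close.

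**Figure D3:**
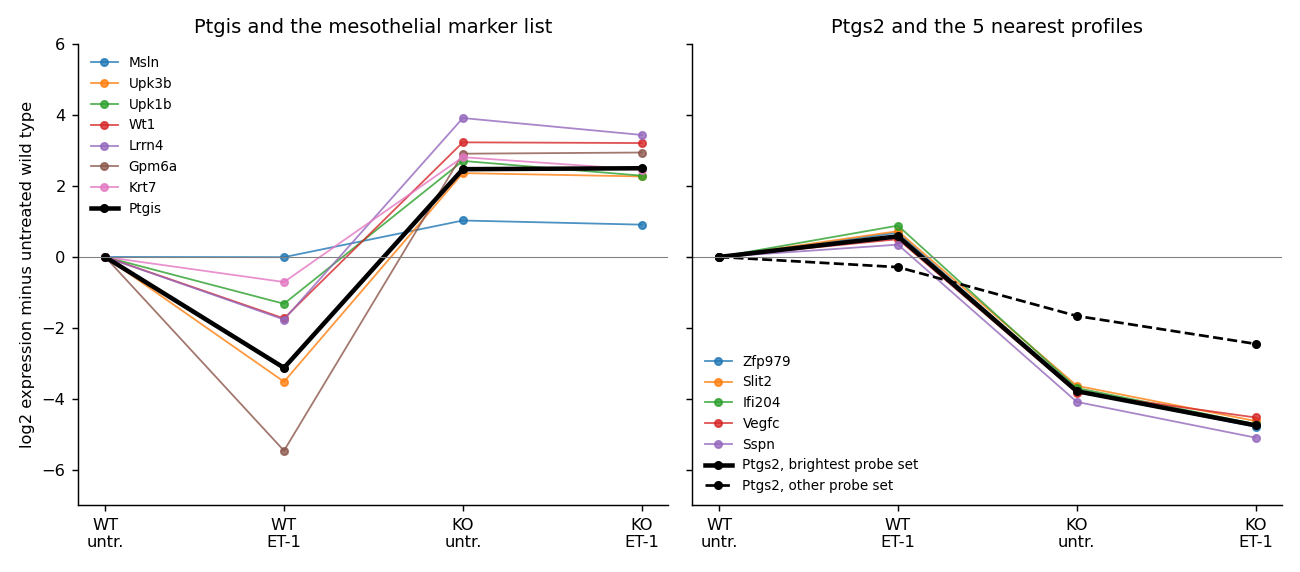
Log2 expression minus untreated wild type on the 4 arrays, 1 array a point, for Ptgis (black) with the 7 mesothelial markers and for Ptgs2 (black) with its 5 nearest genes; lines only join the points of a gene. In ET-1-treated wild type Ptgis lies at -3.12 and the markers from -5.46 (Gpm6a) to -0.01 (Msln), and the second Ptgs2 probe set (dashed) is less far below 0 in the knockout than the brightest.

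Of the prostaglandin E receptors, Ptger4 was well above the filter and Ptger2 was not. The brightest Ptger4 probe set read 12.67 in untreated wild type, 12.82 in ET-1-treated wild type, 11.32 in the untreated knockout and 11.50 in the ET-1-treated knockout. Wild type was higher on both arrays, by 2.56-fold in untreated cells and 2.49-fold after ET-1. The limma difference was -1.34 ± 0.16 (SE, adjusted p = 0.0186), and 10 of 12 other settings called it, at an adjusted p of 0.00255 to 0.105. The call was lost without the untreated knockout array (-1.25) and without the ET-1-treated knockout array (-1.43). After ET-1 Ptger4 differed by 0.15 in wild type and 0.18 in the knockout.

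A dimmer Ptger4 probe set passed the filter only through untreated wild type. It read 9.09 there, 7.67 in ET-1-treated wild type, 7.21 in the untreated knockout and 7.31 in the ET-1-treated knockout. Its genotype difference of -1.12 ± 0.47 (SE) did not pass limma over 20939 probe sets (adjusted p = 0.246). The mean of both probe sets put the Ptger4 difference after ET-1 at -0.84, under 2-fold. Ptger2, read by 1 probe set, was below the filter on every array, at 6.78 to 6.83, and was not tested.

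The Ptger4 promoter is shown as that of the receptor gene that fell. Its 250 bases before the start lie on the minus strand at chr15:5244188-5244437, and capitals mark 4 GC boxes (GGGCGG, read on the other strand), a pair of which share a base. No other motif of the search is in its window.
Ptger4 before the start: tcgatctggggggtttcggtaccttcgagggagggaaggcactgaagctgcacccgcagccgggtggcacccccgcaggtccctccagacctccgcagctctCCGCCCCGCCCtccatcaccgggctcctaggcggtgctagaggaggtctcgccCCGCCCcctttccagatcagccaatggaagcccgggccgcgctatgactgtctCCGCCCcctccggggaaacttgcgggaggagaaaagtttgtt
Unlike the Ptgs2 window, it holds neither TTGCGCAA nor CGTCACGTG.

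Ptgr1, on the inactivation side, was the member that rose. It read 11.61 in untreated wild type, 11.81 in ET-1-treated wild type, 12.62 in the untreated knockout and 12.67 in the ET-1-treated knockout. The knockout was higher on both arrays, by 2.02-fold in untreated cells and 1.82-fold after ET-1, so its 2-fold count rests on a value at the line. The limma difference was 0.94 ± 0.17 (SE, adjusted p = 0.0413). Of 12 other settings 9 called it, at an adjusted p of 0.00545 to 0.231, and the call was lost without the untreated knockout array (0.96), without the ET-1-treated knockout array (0.92) and with each probe set as its own row (0.94). With ET-1 it differed by 0.20 in wild-type cells and by 0.05 in knockout cells.

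ET-1 gave smaller differences than genotype in most of the prostanoid genes. In wild type 1 of 6 was at 2-fold or more, Ptgis, which was lower, against 1.95% of all genes tested (1.17% lower). In the knockout it was 0 of 6, against 0.513%. Ptgs2 differed there by -0.96 between values that are both below the filter, so neither its fold nor its rank can be relied on. Averaged over genotypes, limma called 0 of 6 and 0.0% of all genes, and 0 of the 6 had an unadjusted p under 0.05, against 5.23% of all genes. The estimates were -0.19 ± 0.40 (SE) for Ptgs2, -1.55 ± 0.80 for Ptgis and 0.36 ± 0.22 for Pla2g4a. The knockout ET-1 difference minus that of wild type was -1.54 for Ptgs2 and 3.15 for Ptgis, 2 of the 6 genes at 2-fold, against 2.9% of all genes.

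**Figure D4:**
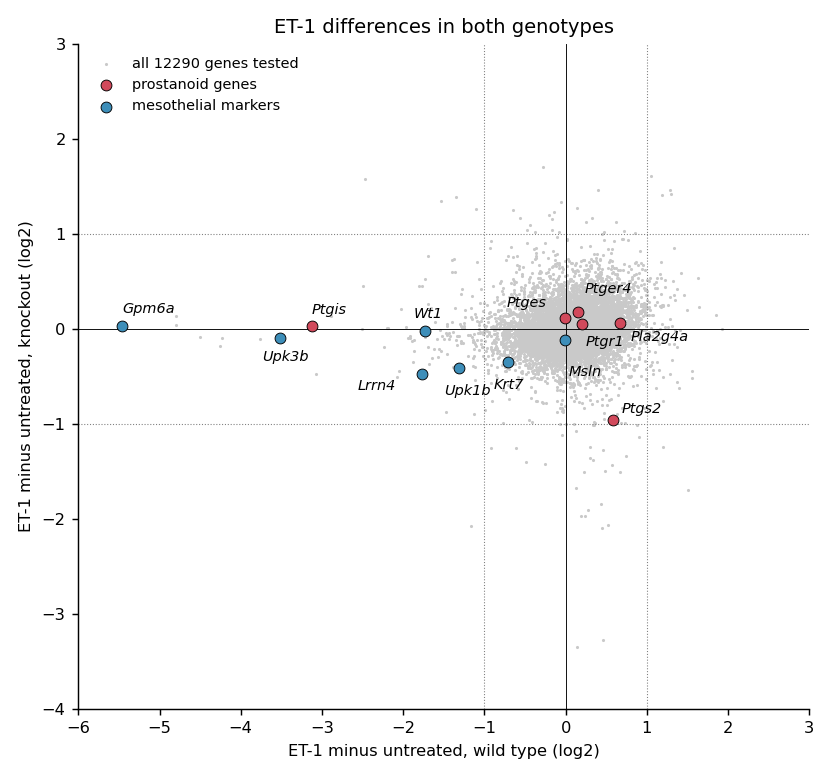
ET-1 minus untreated log2 difference in wild type (horizontal) and in the knockout (vertical) for the 12290 genes tested (grey), the 6 tested prostanoid genes (red) and the 7 mesothelial markers (blue); dotted lines mark 2-fold. Ptgis lies at -3.12 and 0.03 beside Upk3b. All other prostanoid genes shown lie within 2-fold on both axes, with Ptgs2 at 0.58 and -0.96.

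The wider pathway was covered by 7 lists with 93 genes, of which 61 were tested. By limma 6 rose and 5 fell in the knockout, 11 of 61 against 13.6% of all genes, and 0 were called for ET-1. In the list on arachidonate release 0 of 9 were called, and the secreted and cytosolic phospholipases tested lay between -0.40 for Pla2g15 and 0.05 for Pla2g6. Anxa1, which encodes a protein that restrains phospholipase A2, differed by -0.19. In the lipoxygenase and leukotriene list 0 of 6 were called, with Lta4h, the leukotriene A hydrolase, at -0.33. Each of these lists names 16 genes, and 13.6% of all genes tested were called. With 9 and 6 genes tested, a count of 0 does not show that either pathway is unchanged.

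Among 7 other prostanoid synthases, 1 rose and 1 fell by limma, against 6.6% and 7.05% of all genes. Prxl2b, a prostamide and prostaglandin F synthase, rose by 2.36 ± 0.21 (SE, adjusted p = 0.00986). It read 9.47 and 8.94 in untreated and ET-1-treated wild type and 11.47 and 11.66 in the untreated and ET-1-treated knockout. Akr1b8, an aldo-keto reductase, fell by 1.65 (adjusted p = 0.0139). Ptgds, the lipocalin-type prostaglandin D synthase, differed by -0.10 and Ptges2 by 0.32, and neither passed. Tbxas1 (thromboxane synthase) and Hpgds (the hematopoietic prostaglandin D synthase) were below the filter on every array, and so were 6 of the 7 mast cell markers.

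Breakdown and transport genes had 2 that rose and 0 that fell by limma among 5 tested, against 6.6% and 7.05% of all genes. Slco2a1, the carrier that takes prostaglandins back into cells, read 9.89 and 9.12 in untreated and ET-1-treated wild type and 12.52 and 12.24 in the untreated and ET-1-treated knockout. It rose by 2.87 ± 0.18 (SE, adjusted p = 0.00651). Ptgr2, a relative of Ptgr1 with the same kind of reductase activity, rose by 1.26 (adjusted p = 0.0122), and the related Zadh2 differed by 0.01. Hpgd, which starts prostaglandin inactivation ahead of Ptgr1, was below the filter on every array, at 7.11 to 7.26. Cbr3, a carbonyl reductase, differed by -0.64 in untreated cells and -1.99 after ET-1 and did not pass (adjusted p = 0.100 by limma).

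Most prostanoid receptors outside the named genes were dim. Of 9, the 4 tested were Ptgdr2, Tbxa2r and the nuclear receptors Pparg and Ppard, and the prostacyclin receptor gene Ptgir read 6.66 to 6.79. Pparg, a lipid-sensing nuclear receptor, fell by 1.58 ± 0.14 (SE, adjusted p = 0.0103), with 9.33 and 9.64 in untreated and ET-1-treated wild type and 7.95 and 7.85 in the untreated and ET-1-treated knockout. It entered the test through wild type alone, since both knockout values are below the filter, so the size is uncertain. In the cyclic AMP list downstream of Ptger2 and Ptger4, 2 of 13 fell and 1 rose by limma, against 7.05% and 6.6% of all genes. The adenylyl cyclase Adcy7 fell by 1.51 (adjusted p = 0.0172) and the phosphodiesterase Pde4d fell by 2.12 (adjusted p = 0.0302). Both were below the filter in the knockout, at 8.49 and 8.56 for Adcy7 and 8.22 and 7.82 for Pde4d, and entered the test through wild type alone. Arrb2, a beta-arrestin that desensitises receptors, rose by 0.98 (adjusted p = 0.0179), and Gnas, the stimulatory G protein itself, differed by 0.04.

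**Figure D5:**
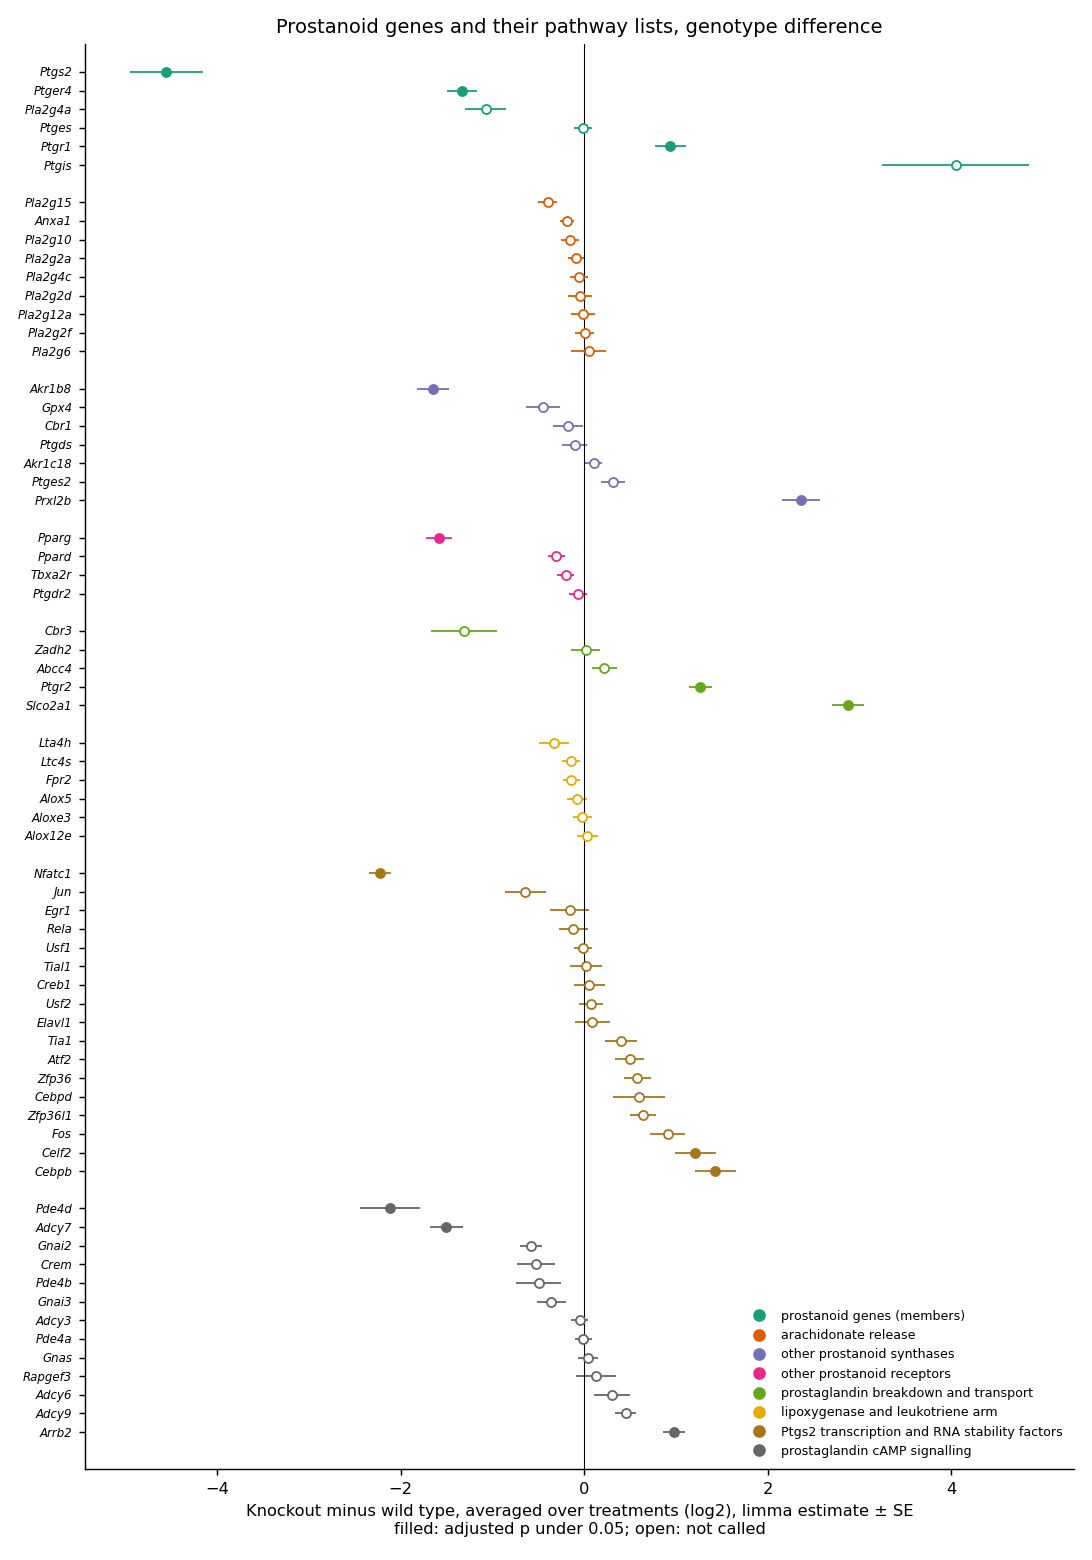
Limma genotype difference (log2, knockout minus wild type, averaged over treatments) with its SE for each tested prostanoid gene and pathway-list gene, coloured by list; filled points have an adjusted p under 0.05. The points of the arachidonate release and lipoxygenase lists are all open, while Ptgs2 at -4.55 is the lowest point and Slco2a1 at 2.87 the highest filled one.

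The list genes named for their ET-1 difference include transcription factors. Egr1, an immediate early gene, was higher after ET-1 by 1.05 in wild type and 1.61 in the knockout. Fos was higher by 0.63 and 1.13, and Cebpd, a C/EBP factor, by 1.33 and 0.35. Crem, a cyclic AMP-responsive repressor, was higher by 0.93 in wild type and 0.19 in the knockout. Cbr3 differed by 0.36 in wild type and -0.99 in the knockout. None of these passed limma for ET-1 (0 of 61), so they are values of single array pairs.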

How the data were processed

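The authors deposited 1 table of log2 values for 45101 probe sets, made with RMA per the submitters' processing notes (the version is not given there). The values run from 5.00 to 15.24, and array medians are 8.89 to 8.92. Probe sets were named through the platform annotation, which pairs 34958 with 1 gene and 932 with several; 9211 are unlisted. Of the 34958, 34754 matched RefSeq (GRCm38.p6) by Entrez identifier.

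Values were used as deposited. Each gene took its brightest probe set, and genes whose highest value was above 8.90 were tested with limma 3.58.1 (R 4.3.3, eBayes with trend) at an adjusted p of 0.05. The test was also run on simulated data with independent noise and an added genotype shift. That simulation held no departure from additivity and no spread between cultures. It therefore does not show how reliable the calls on these 4 arrays are. Differences between arrays were counted at 2-fold. The number of arrays limits the precision. Alternatives were the filter, array normalization, probe set summary, eBayes prior, fold threshold and each array left out. Genes were named from all members and from list genes past the test or at 2-fold in both genotype pairs. Others came from the 3 largest further ET-1 differences of a list and the 5 nearest profiles of each member at 2-fold in any pair. The ET-1 part was not followed in full, and Rapgef3, Pde4b and Pla2g12a are among the genes it covers that are not described. Some named genes that did not pass (Rela, Creb1, Jun, Usf1, Elavl1, Pla2g15, Anxa1, Tbxas1, Hpgds, Hpgd, Ptgir and Gnas) fall outside this rule and were chosen after their values were seen. Members and lists were chosen with earlier results of these data known. Python 3.11.15, numpy 2.4.6 and pandas 2.3.3 were used.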

Additional observations from a re-analysis of the deposited data

Results flagged for a closer look

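In 3 probe sets the ET-1 difference had opposite signs in the genotypes and the gap between them was 2-fold or more. Whatever the signs, 4.42% of 20939 probe sets had a gap of that size, and the share that also had opposite signs was not counted. With 1 array per group the difference was not tested. For the brightest Ptgs2 probe set the knockout minus wild-type gap was -1.54 (0.58 in wild type, -0.96 in the knockout), while its other probe set was lower after ET-1 in both. For Ptgis the gap was 3.15 (-3.12 in wild type, 0.03 in the knockout). For the dimmer Ptger4 probe set it was 1.52 (-1.42 and 0.10), while the brightest was at 0.15 and 0.18. The knockout differences of 0.03 and 0.10 are small, so their sign carries little. Both knockout values of the brightest Ptgs2 and the dimmer Ptger4 probe sets were below the filter. ET-1-treated wild type was below it for Ptgis and the dimmer Ptger4 probe set, so the sizes of these gaps are uncertain. Each gap uses the ET-1-treated wild-type array, whose 3' to 5' gap was 3.79 for Gapdh and 1.81 for Actb; its part was not tested.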

How the results depend on the processing

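The genotype test called 3 prostanoid genes, and 1677 of all 12290 genes. It called 5 with robust eBayes, the stricter filter, array medians subtracted, quantile normalization or the mean of all probe sets, where Ptgis and Pla2g4a passed too. These settings also called more of all genes. In the same order the counts were 1836 of 12290, 1784 of 10702, 2322 of 12286, 2084 of 12284 and 1888 of 10828. With each probe set as its own row, where 8.45% of 20939 were called, the test called 2 prostanoid genes, without Ptgr1. Leaving out 1 array in a model of genotype alone gave 1 to 5 of them and 669 to 3710 of all genes, against 1677. Without an array of wild type the residual is the small gap between the knockout arrays (2836 without ET-1-treated wild type, 3710 without untreated wild type), and without one of the knockout it is the wild-type gap (759 without the untreated, 669 without the ET-1-treated). The count at the fold after ET-1 in wild type was 1, against 1.95% of all genes. It was 2 with each probe set as its own row, against 2.81% of all rows, and 2 at 1.5-fold, against 10.7% of all genes. In the knockout the count was 0, against 0.513% of all genes, and 1 at 1.5-fold, against 2.33%. No called difference of a prostanoid gene changed sign under any setting run. No paired analysis was possible because each group has 1 array and the labels give no replicate numbers. Signal near the filter limits Ptges, Ptger2 and the low groups of Ptgs2, Ptgis, Pparg, Adcy7, Pde4d, Brinp3 and Prrx2. It also limits the low groups of the markers Thy1, Upk3b, Wt1, Krt14, Krt18, Krt19, Dsp and Cd14, and of Apela and Aldh1a1.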

Other observations

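The genes nearest in profile to the other prostanoid genes that reached 2-fold in some pair were, for Ptger4, Ubash3b, Scmh1, Mthfd2l, Plekha2 and Parp12 (distance 0.03 to 0.11 over the 4 arrays). For Ptgr1 they were Tmem161b, Man2b1, Rars2, Tada1 and Scamp5 (0.05). For Pla2g4a they were Esyt2, Mrvi1, Tlr2, Fam118a and Cnst (0.03 to 0.09), and the pattern-recognition receptor gene Tlr2 read 10.58 and 11.19 in untreated and ET-1-treated wild type and 9.80 and 9.78 in the untreated and ET-1-treated knockout.

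Of the cell types other than mesothelium and epithelium, 1 of 7 endothelial, 1 of 7 mast cell and 5 of 8 macrophage and blood cell markers were tested. The pan-leukocyte gene Ptprc stayed at 6.58 to 6.70. Among the macrophage and blood cell markers, by limma Csf1r rose by 1.09 and Cd14 fell by 0.65. That is 1 of 5 tested in each direction, against 6.6% higher and 7.05% lower of all genes. Cd14 was below the filter in both knockout arrays (8.70 and 8.60) and entered the test through wild type alone, so its size is uncertain. Of 5 smooth muscle genes tested, 3 fell and 1 rose by limma, against 7.05% and 6.6% of all genes. The defining gene Myh11 was below the filter, at 7.74 to 7.85.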
